A study of Mus musculus with 16 samples.

Results

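The laminin chain and integrin subunit genes of the mouse were followed through 16 bulk RNA-seq libraries in which sympathetic nerve tissue and pancreatic stellate cells were grown apart or together. Members were taken by name from both tables of normalized counts: protein-coding genes called Lama, Lamb or Lamc with a number, or Itga or Itgb with a number or a letter, without Itgbl1 and the Itgb1bp genes. The rule gave 38 of the 56941 genes in each table, of which 11 were laminin chains and 27 were integrin subunits. The rule uses gene names and no measured value.

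Laminins are large heterotrimers of 1 alpha, 1 beta and 1 gamma chain that form a sheet in every basement membrane. The alpha chain carries the domains that cells bind, and the gamma chain ties the sheet to nidogen and collagen IV. Integrins are heterodimers of an alpha and a beta subunit that hold cells to laminins, collagens, fibronectin and other ligands and join them to the actin cytoskeleton inside the cell. In peripheral nerve, laminins surround Schwann cells and satellite glia, line blood vessels and serve as a substrate for growing axons. Fibroblasts and stellate cells make laminins and use integrins to grip and remodel the matrix around them.

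The PSC were mPSC1, an immortalized murine pancreatic stellate cell line that the labels list as fibroblasts of the pancreas, and all PSC libraries came from this 1 line. The nerve tissue was explanted superior cervical ganglion (SCG), the sympathetic ganglion of the neck, from C57BL/6J pups at postnatal day 1 to 4. The first table held 3 libraries of PSC alone and 3 of PSC cultured with SCG explants (PSC+SCG). The second held the ganglia: 3 libraries of SCG alone, 3 of SCG cultured with NIH 3T3 mouse embryonic fibroblasts (SCG+MEF) and 4 of SCG cultured with PSC (SCG+PSC). Cells sat on inserts and shared the medium with 8 to 13 explants per well without contact for about 70 hours, and RNA was taken from 1 partner at a time. Wells for ganglia were coated with poly-D-lysine and laminin protein, and nerve growth factor was added. Neither carries RNA, so the values below are transcripts that the cells made. Nothing tied the libraries of a group to separate cultures or litters, and p-values therefore measure the spread between libraries, which may be partly technical.

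Recovered read totals ran from 31900689 to 41632381 in the 14 libraries where they could be read from the values, and the normalized counts of a library summed to between 33919726 and 38849817. Summed counts of 10 fibroblast markers were 612576 to 898035 in the PSC table, and summed counts of 10 sympathetic neuron markers were 83870 to 200325 across the nerve libraries. The fibroblast markers summed to 270684 to 474900 in the nerve libraries. Markers of glia, macrophages, endothelial and mural cells were also read there, so a nerve value is a sum over cell types. Sums of different marker lists do not measure how much of each cell type was present. Fewer cells of a type and less RNA per cell cannot be told apart in such tissue.

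In the libraries of PSC, 33 members had normalized counts summing to 10 or more over the 6 libraries and entered the test. Itgad, Itgam, Itgax and Itgb2l were at 0 in every library, Itgb6 stayed below the sum, and 8 members were under 10 normalized counts in every library. Another 9 members were above 1000 normalized counts in all 6 libraries: Lamb1, Lamb2, Lamc1, Itga3, Itga5, Itga11, Itgav, Itgb1 and Itgb5. In the ganglia 36 members were tested, 17 were above 1000 in all 10 libraries, and Itgad and Itgb2l were left out, the first at 0 throughout and the second at 3.04 in SCG+MEF replicate 1 and at 0 elsewhere. The members over 1000 in the ganglia added Lama2, Lama4, Lama5, Itga1, Itga6, Itga7, Itga9, Itgb3 and Itgb8 to the PSC set, and lacked Itga11.

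To set genes side by side, normalized counts were divided by the exon length of the gene in kilobases. This length merges the exons of all annotated transcripts and may exceed that of the transcripts made, so the order of genes is approximate. In PSC alone the highest level per kilobase belonged to Itgb1, the subunit shared by most integrins, at 5933 ± 708 (SD, n = 3). Itga5, its partner in the fibronectin receptor, followed at 3005 ± 285 (SD, n = 3). Then came Lamb2 at 1605 ± 176, Itgb5 at 1579 ± 106, Lamc1 at 1312 ± 101, Lamb1 at 858 ± 22.7, Itgav at 744 ± 94.0 and Itga3 at 650.3 ± 183 (SD, n = 3 each). Lamb2 and Itgb5 lay within 1 SD of each other, as did Itgav and Itga3. No laminin alpha chain came near these levels, the highest on this scale being Lama5 at 83.2 ± 31.2 and Lama4 at 64.7 ± 32.0 per kilobase, which overlapped. Before the division by 11448 and 15715 bases, Lama5 had 1218, 1094 and 546 normalized counts and Lama4 had 1588, 818 and 642.

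**Figure D1:**
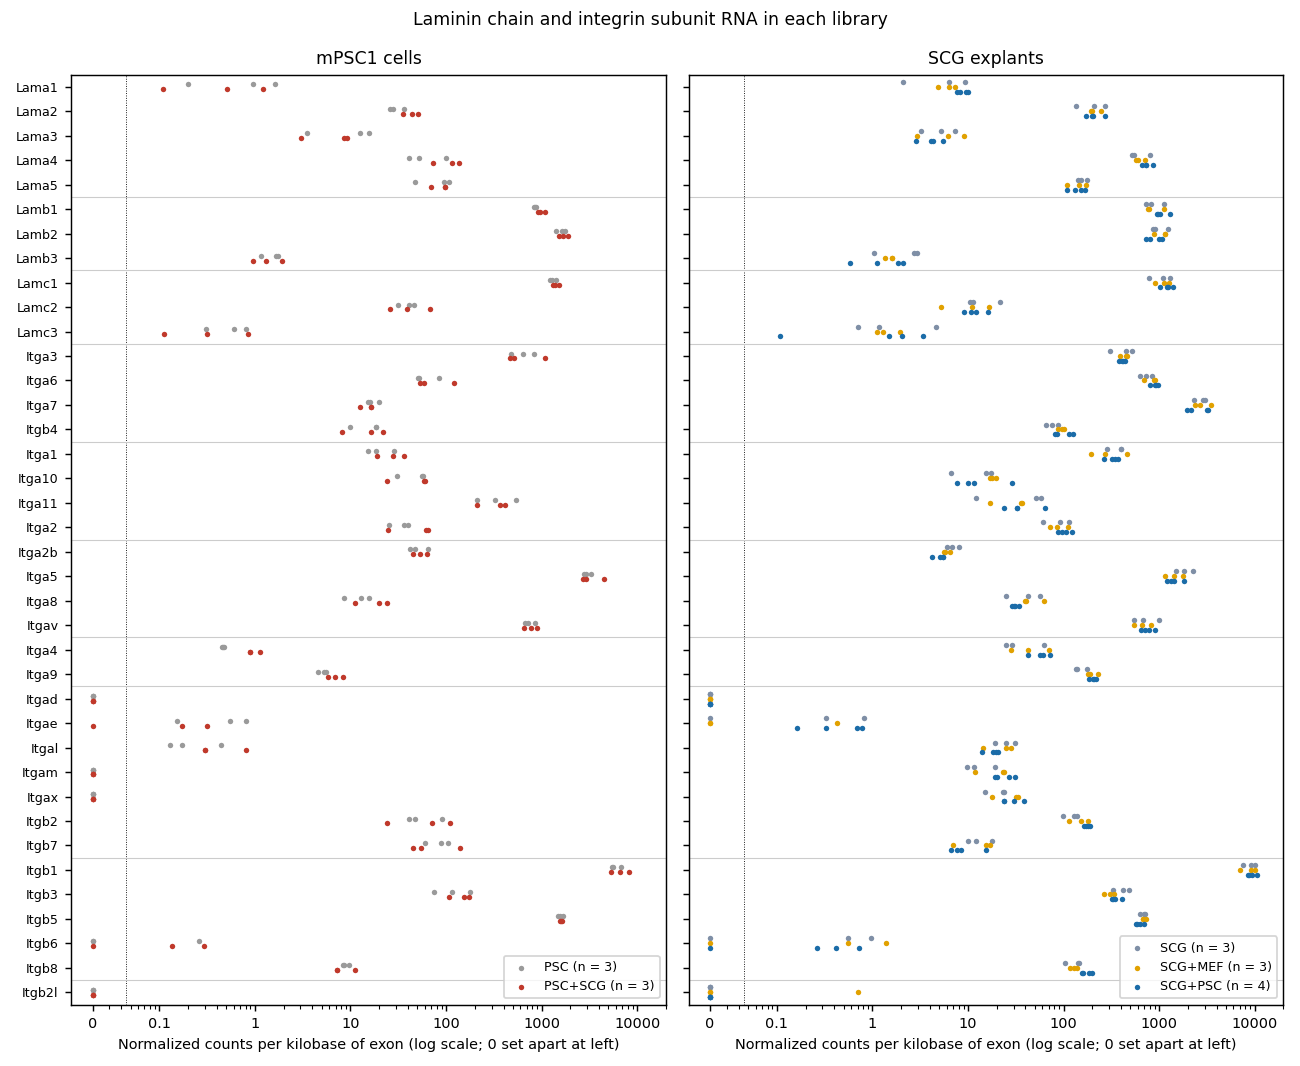
Level of each member in every library, as normalized counts per kilobase of exon on a log axis with values of 0 set apart at the left, for the PSC table and the nerve table in separate panels and with 1 point per library. Itgb1 is the highest member in both panels, Itga5 is second in the PSC libraries and Itga7 in the SCG libraries, and Itgad is at 0 in all of them.

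In SCG alone Itgb1 was again first, at 8952 ± 1308 per kilobase (SD, n = 3). The second was Itga7 at 2735 ± 356, the alpha subunit of a laminin receptor known from muscle and peripheral nerve, ahead of Itga5 at 1865 ± 399. Lamc1 at 1062 ± 260, Lamb2 at 993 ± 203 and Lamb1 at 888 ± 206 did not differ beyond their spread. Itgav at 741 ± 242, Itga6 at 735 ± 110, Itgb5 at 681 ± 48.9 and Lama4 at 622 ± 156 formed the next group, with overlapping ranges. Itga3, Itgb3 and Itga1 lay at 429 ± 111, 409.5 ± 79.1 and 358 ± 65.7 per kilobase.

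The mixture of laminin chains differed in its balance of alpha to gamma chains. Lamc1, the gamma chain of most basement membrane laminins, made up at least 95.7% of the summed gamma level per kilobase in every library. Its level per kilobase was 4.77, 7.38 and 10.8 times the sum of the 5 alpha chains in PSC 1, 2 and 3, and 5, 5.34 and 6.82 times in PSC+SCG 1, 2 and 3. In the 10 nerve libraries the same ratio was between 0.936 and 1.25, so on this scale the alpha chains there were about as abundant as Lamc1. The tables were normalized separately, and this ratio within a library does not depend on that scaling, though it does depend on the exon lengths. It is given without a test, since tissue, culture and table changed together.

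Among the 5 alpha chains, PSC divided their level per kilobase mainly between Lama5 and Lama4. Lama5, the alpha chain of most mature epithelial and vascular basement membranes, held 41.3%, 49.5% and 40.3% in the PSC libraries and 26.9%, 38.1% and 43.4% in the PSC+SCG libraries. Lama4, the alpha chain of vessel walls, fat and nerve, held 39.2%, 27.0% and 34.5% in PSC and 52.7%, 44.5% and 32.3% in PSC+SCG. In the ganglia Lama4 led in every library, with 58.4% to 65.2% in SCG, 60.2% to 65.1% in SCG+MEF and 65.5% to 69.5% in SCG+PSC. Lama2, the alpha chain of muscle and Schwann cell basement membrane, held 16.2% to 23.7% across the nerve libraries. Lama1 and Lama3 held less than either in the SCG libraries, at 5.89 ± 3.60 and 5.25 ± 2.03 per kilobase (SD, n = 3).

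**Figure D2:**
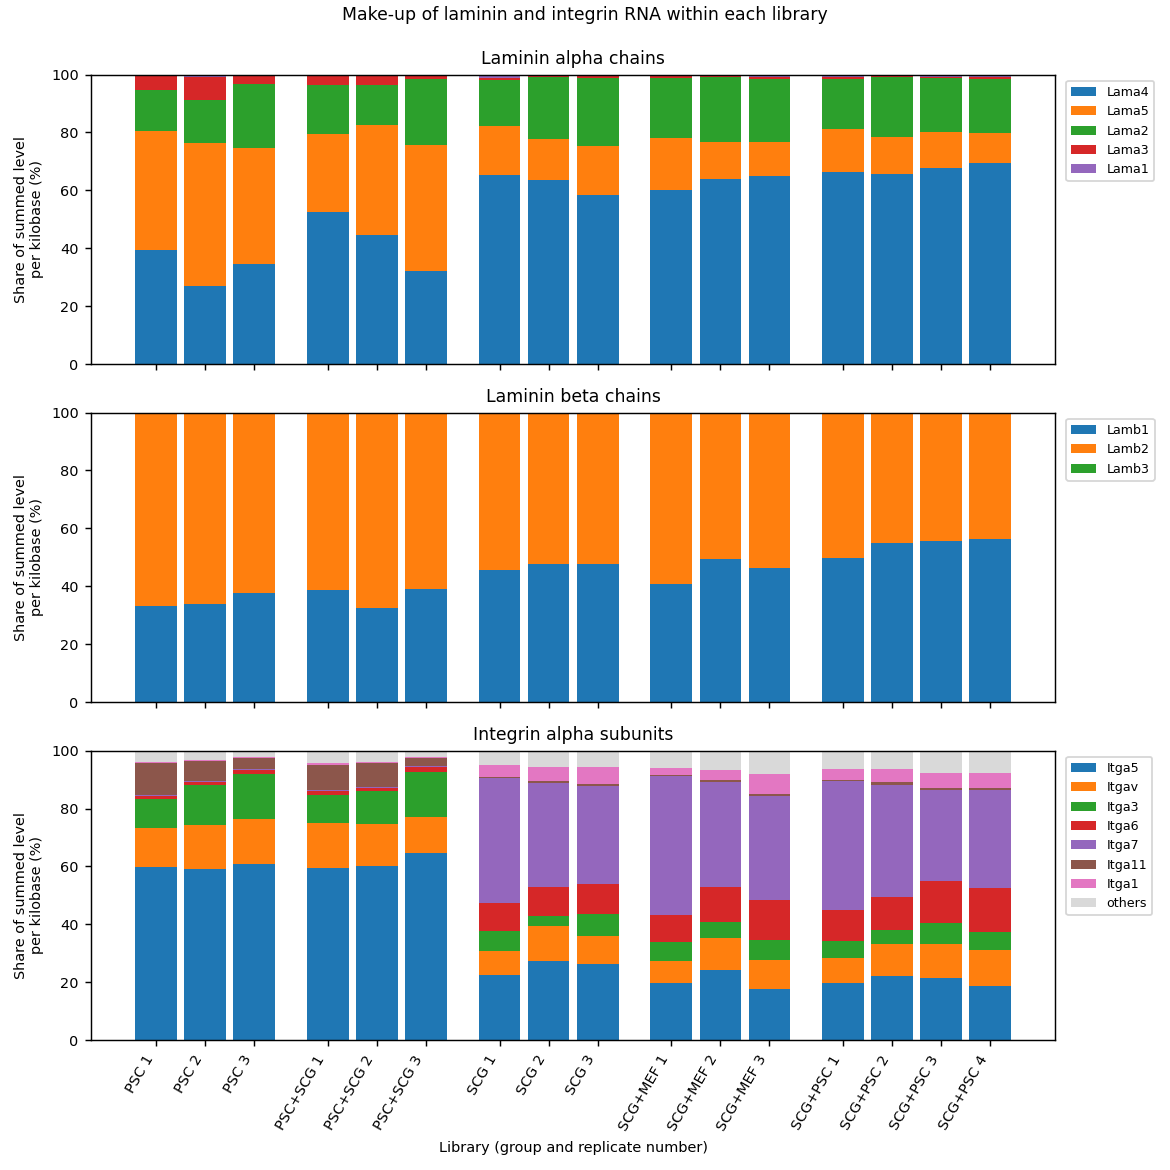
Stacked bars of the share of each chain in the summed level per kilobase of its class, 1 bar per library, for laminin alpha chains, laminin beta chains and integrin alpha subunits, with each bar adding up to the whole class. Lama4 takes 58.4% or more of the alpha chains in each nerve library, and Itga5 takes 59.2% or more of the integrin alpha subunits in each PSC library against 27.3% or less in each nerve library.

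Integrin alpha subunits differed as widely. Itga5 made up 59.2% to 64.5% of the summed alpha level per kilobase in the 6 libraries of the PSC table and 17.6% to 27.3% in the 10 nerve libraries. Itga7 made up 31.4% to 48.0% in the nerve libraries and 0.176% to 0.428% in the PSC table. Both of these subunits pair with Itgb1, which was 73.3% or more of the beta subunits in every library. The ratio of Itga7 to Itga6, another laminin-binding subunit, was between 2.14 and 5.07 per kilobase in the nerve and between 0.103 and 0.398 in the PSC table. Itga11, a collagen receptor subunit of fibroblasts, made up 2.97% to 11.1% of the alpha subunits in the PSC table and 0.184% to 0.848% in the nerve. Itga1, a collagen receptor subunit of smooth muscle and vessels, made up 0.270% to 0.751% in the PSC table and 2.68% to 7.10% in the nerve.

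The first comparison asked what signals from sympathetic ganglia did to the stellate cells. No member passed the threshold of an adjusted p of 0.05 and a log2 fold change of 0.5 in size when PSC+SCG and PSC were compared with limma, the lowest adjusted p being 0.9999, and 0% of the 14541 protein-coding genes tested passed. At an unadjusted p under 0.05 there were 3 members, Lama4, Lama2 and Itga4, or 9.09% of the 33 tested, against 1.41% of protein-coding genes. Means of the log2 values were higher in PSC+SCG for 22 members and lower for 11, where 53.2% of protein-coding genes were higher. The median log2 fold change of the 33 was 0.083, beside 0.010 for all protein-coding genes tested.

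Libraries with the same replicate number varied together, and a fit with the replicate number as a block was therefore read beside this one. It called 0.523% of protein-coding genes and 1 member, Lama4 (chromosome 10, 38841141 to 38998403, plus strand, GRCm39), which rose in it. Lama4 had 1588, 818 and 642 normalized counts in PSC 1, 2 and 3, and 2161, 1813 and 1139 in PSC+SCG 1, 2 and 3. The groups overlapped, since PSC 1 lay above PSC+SCG 3, but each PSC+SCG library was above the PSC library of its own number. The log2 fold change was 0.81 (SE 0.345, 95% interval 0.02 to 1.59, limma without a block, unadjusted p 0.0456), and with the block the SE fell to 0.124 and the adjusted p to 0.0016. Leaving out 1 library at a time from the limma fit with the block gave fold changes of 0.64 to 0.99 and kept the call in 5 of 6 cases. Without PSC+SCG replicate 2 the adjusted p in that fit was 0.0578.

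Lama2 had 654, 503 and 468 normalized counts in PSC and 781, 628 and 917 in PSC+SCG. It too was above the same-numbered PSC library in 3 of 3 pairs, with a log2 fold change of 0.51 (SE 0.194), but its adjusted p was 0.114 in the limma fit with the block. Lama5 had 1218, 1094 and 546 in PSC and 803, 1131 and 1116 in PSC+SCG, and was lower in 1 pair and higher in the other two. Lama1 and Lama3, the minor alpha chains, were lower in PSC+SCG in all 3 pairs. Lama1 had 9.30, 15.9 and 1.93 normalized counts in PSC against 4.94, 11.8 and 1.06, and Lama3 had 162, 201 and 45.3 against 118, 111 and 39.4. Neither came near the threshold, with adjusted p of 0.954 and 0.538 in the limma fit with the block. The count of alpha chains past the threshold was therefore 1 of 5 with the block and 0 of 5 without it.

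Of the beta and gamma chains none passed. Lamb1, the beta chain of most early and vascular laminins, had 9468, 8991 and 9152 normalized counts in PSC and 10279, 9831 and 11628 in PSC+SCG. Its groups did not overlap, but the log2 fold change was only 0.20 (SE 0.120, 95% interval -0.08 to 0.47). Lamb2, the beta chain of synaptic and vascular laminins, had 10766, 9909 and 8638 in PSC and 9288, 11562 and 10224 in PSC+SCG, and Lamc1 had 13906, 16131 and 14527 against 14785, 15656 and 17343. Both overlapped between groups, with intervals of -0.24 to 0.40 and -0.20 to 0.40 on the log2 scale.

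**Figure D3:**
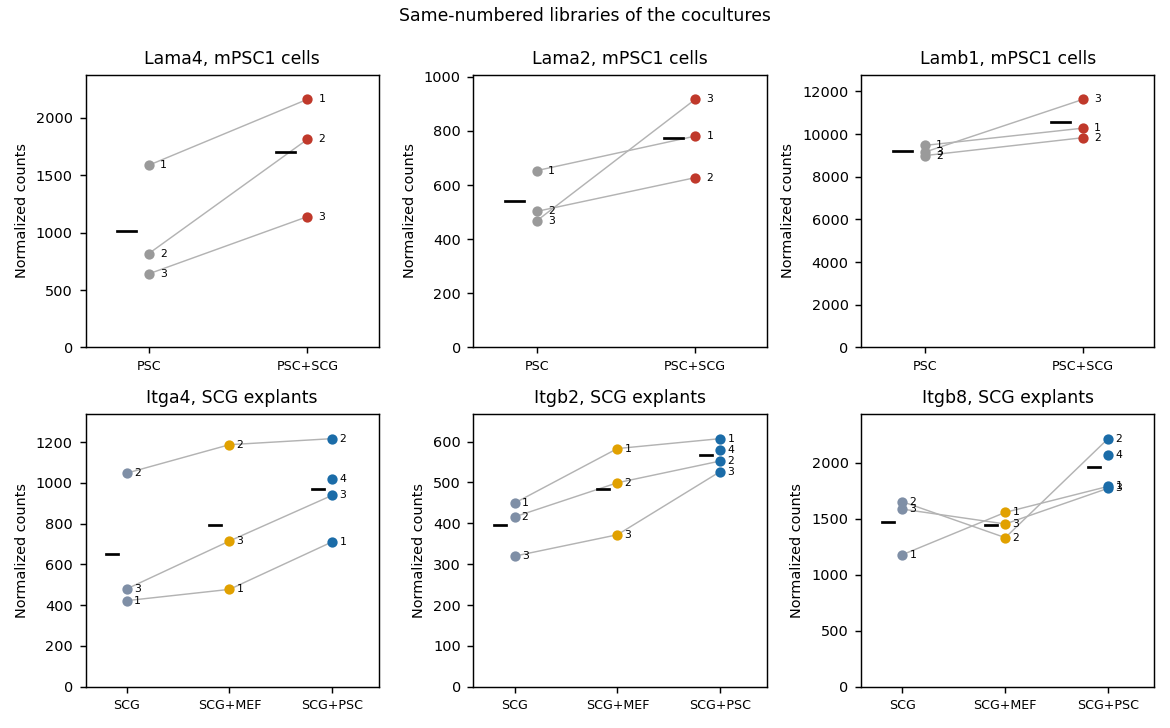
Normalized counts of Lama4, Lama2 and Lamb1 in PSC and PSC+SCG and of Itga4, Itgb2 and Itgb8 in SCG, SCG+MEF and SCG+PSC, 1 point per library labelled with its replicate number, with thin lines joining libraries of the same number and black bars at the group means. For all 6 genes each coculture with the other cell type of the study (PSC+SCG or SCG+PSC) lies above the same-numbered library cultured alone, while SCG+MEF 2 and 3 lie below SCG 2 and 3 for Itgb8.

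No integrin subunit passed in the PSC, with or without the block. Groups did not overlap for 3 members, all higher in PSC+SCG (Lamb1, Itga4 and Itga9), where 2.90% of protein-coding genes were higher without overlap, and for 0 members in the lower direction, where 1.47% were. Itga4, whose product pairs with the beta1 or beta7 subunit to bind fibronectin and VCAM1, had 7.61, 7.95 and 7.71 normalized counts in PSC and 14.8, 18.7 and 14.9 in PSC+SCG. Its log2 fold change was 0.96 (SE 0.407) at an adjusted p of 0.573 in the limma fit with the block, on counts of a level where 1 read weighs heavily. Itga9, a receptor subunit for tenascin and osteopontin, had 40.6, 43.1 and 35.6 against 65.3, 45.4 and 53.2. Of the abundant subunits, Itgb1 had 32844, 33122 and 40303 in PSC and 39734, 31721 and 48861 in PSC+SCG, and Itga5 had 15480.3, 14802 and 17700.2 against 15403, 14608 and 24233. Itgb5, a partner of Itgav in binding vitronectin, had the smallest log2 fold change of the 33, with 11929, 11091 and 10432 in PSC, 11246, 11092 and 11419.5 in PSC+SCG, and a change of 0.015 on the log2 scale (95% interval -0.25 to 0.28).

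The variation between replicate numbers was itself large among the members of the PSC table. Replicate 3 was the lowest in both groups for 14 of the 33 tested members, or 42.4%, beside 27.9% of protein-coding genes, and these included Lama4, Itga1, Itga11, Itgb3 and Itgb4. It was the highest in both groups for 8 members, or 24.2% beside 27.0%, among them Itga3, Itga5, Itga6, Itgav and Itgb1. Itga11 ran 3315, 1989 and 1305 in PSC and 2569, 2283 and 1290.3 in PSC+SCG. Itga3, the alpha subunit of an epithelial laminin receptor, ran 2757, 3712 and 4889 in PSC and 2744, 3005 and 6371 in PSC+SCG. In both genes the spread over replicates was wider than the difference between groups.

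Some leukocyte integrin genes were read in the PSC although blood cell markers were scarce. Itgb2, the common beta subunit of leukocyte integrins, had 155, 294 and 133 normalized counts in PSC and 231, 355 and 78.7 in PSC+SCG, and Itgb7 had 177, 258 and 302 against 129.5, 158 and 402. The alpha partners of Itgb2 were at 0 (Itgam, Itgax, Itgad) or at 5.32 or less (Itgal). Itgae, a partner of Itgb7, was at 5.07 or less, and Itga4, which also pairs with beta7, ran from 7.61 to 18.7. Of 12 macrophage markers, Ptprc, Adgre1, C1qb, C1qc and Tyrobp were at 0 in all 6 libraries, and the 12 summed to between 226 and 350.0. The leukocyte list as a whole had 0 of 4 tested members past the threshold in either fit.

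Among the genes that work with laminins and integrins, 1 passed the threshold in the PSC. Of 18 basement membrane partners 14 were higher in PSC+SCG, where 53.2% of all protein-coding genes tested were higher. The median log2 fold change of the 18 was 0.14, and none passed in either fit. Among 12 tested receptors for laminin other than integrins, 7 were higher, the median was 0.067, and none passed. The intracellular proteins that link integrins to actin had 20 of 26 higher, a median of 0.049 and none past. Of 20 integrin ligands other than laminins 11 were higher and 1 passed, in the fit with the block only. This was Tnn, tenascin N, a matrix glycoprotein that binds integrins, with 129, 52.2 and 63.6 normalized counts in PSC and 449, 425 and 109.6 in PSC+SCG, a log2 fold change of 1.85 and an adjusted p of 0.000819 from limma with the block. PSC 1 lay above PSC+SCG 3, so the groups overlapped.

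The second comparison asked what the ganglia showed after culture with PSC, and it used a limma fit over all 10 nerve libraries. Without the block no member passed, and 0.0501% of the 15984 protein-coding genes tested did. At an unadjusted p under 0.05 there were 6 members, 16.7% of the 36 tested, against 5.57% of protein-coding genes. All 6 were integrin subunits and all were higher in SCG+PSC: Itga6, Itga9, Itgam, Itgb2, Itgb4 and Itgb8. Means of the log2 values were higher for 19 members and lower for 17, where 52.2% of protein-coding genes were higher. The median log2 fold change of the members was 0.055 beside 0.0081 for all protein-coding genes.

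With the replicate block 1.93% of protein-coding genes passed, and among members Itga4 and Itgb2 did, both higher in SCG+PSC. SCG+PSC replicate 4 has no library of its number in the other groups and adds nothing to the contrast in that fit, so the blocked values rest on 3 pairs. Itga4 (chromosome 2, 79085660 to 79163467, plus strand, GRCm39) had 422, 1047 and 479.5 normalized counts in SCG 1, 2 and 3 and 711, 1216, 939 and 1019.7 in SCG+PSC 1 to 4. SCG 2 lay above 3 of the 4 SCG+PSC libraries, while the other two SCG libraries lay below all of them. The log2 fold change was 0.68 (SE 0.346, unadjusted p 0.0755) without the block and 0.64 (SE 0.133, adjusted p 0.0333, limma) with it. In SCG+MEF the same gene had 478, 1187 and 715, higher than the same-numbered SCG library in 3 of 3 pairs and lower than the SCG+PSC library in 3 of 3.

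Itgb2 (chromosome 10, 77366086 to 77401542, plus strand, GRCm39) had 449.5, 416 and 319.7 normalized counts in SCG, 583, 499 and 372 in SCG+MEF, and 607, 552, 527 and 580.0 in SCG+PSC. Every SCG+PSC library lay above every SCG library, and the SCG+MEF libraries overlapped both. The log2 fold change against SCG was 0.53 (SE 0.169, unadjusted p 0.009, adjusted p 0.827 by limma), and with the block it was 0.52 (SE 0.113, adjusted p 0.045 by limma). Both calls were close to the threshold. With the block and 1 library left out at a time, Itga4 stayed past it in 3 of 10 cases (without SCG replicate 2, SCG+PSC replicate 2 or SCG+PSC replicate 4) and Itgb2 in 1 of 10 (without SCG+PSC replicate 4). In the other cases the adjusted p from limma with the block was between 0.0503 and 0.215 for Itga4 and between 0.0586 and 0.211 for Itgb2. Leaving out SCG+PSC replicate 4 is no check of either call, since that library adds nothing to the contrast with the block. The call of Itgb2 was thus lost in every omission that bears on it.

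Itgb2 and its alpha partners belong to leukocytes, and in the ganglia they were read at low levels. Itgam, the alpha subunit of complement receptor 3 on macrophages and microglia, had 59.7, 98.0 and 50.2 normalized counts in SCG and 158, 98.3, 138 and 104 in SCG+PSC, without overlap and with a log2 fold change of 0.87 (SE 0.315, adjusted p 0.195 with the block, limma). Itgax, a subunit of dendritic cells and some macrophages, had 112, 117 and 72.7 against 148, 188, 115 and 115, and Itgal, a subunit known from lymphocytes, had 165, 127 and 206 against 119.9, 129, 91.9 and 136. Exons of Itgam (chromosome 7, 127661808 to 127717753, GRCm39) share 67.4% of their length with the predicted gene Gm49368 on the same strand, and reads there may have been divided or dropped. The 12 macrophage markers summed to between 8339 and 12751 in SCG and between 8853 and 11049.9 in SCG+PSC, and 3 of the 12 were higher on average. One of these, Mrc1, the mannose receptor of resident macrophages, rose in the fit with the block from 149, 282 and 163 to 390.4, 427, 452 and 513 normalized counts. In SCG+MEF, Mrc1 had 346, 361 and 266, Itgam had 119, 124 and 60.8, and Itgax had 155, 162 and 87.2. Each of these lay above the SCG library of its number, though none of the genes passed the threshold there. Itgal had 165, 94.6 and 183 in SCG+MEF. Of the 10 neutrophil and lymphocyte markers 4 were at 0 in all nerve libraries. The list summed to between 87.1 and 129.6 in SCG and between 38.3 and 72.9 in SCG+PSC, lower without overlap, while Itgb2 was higher. The part of these cells in the integrin values was not tested.

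**Figure D4:**
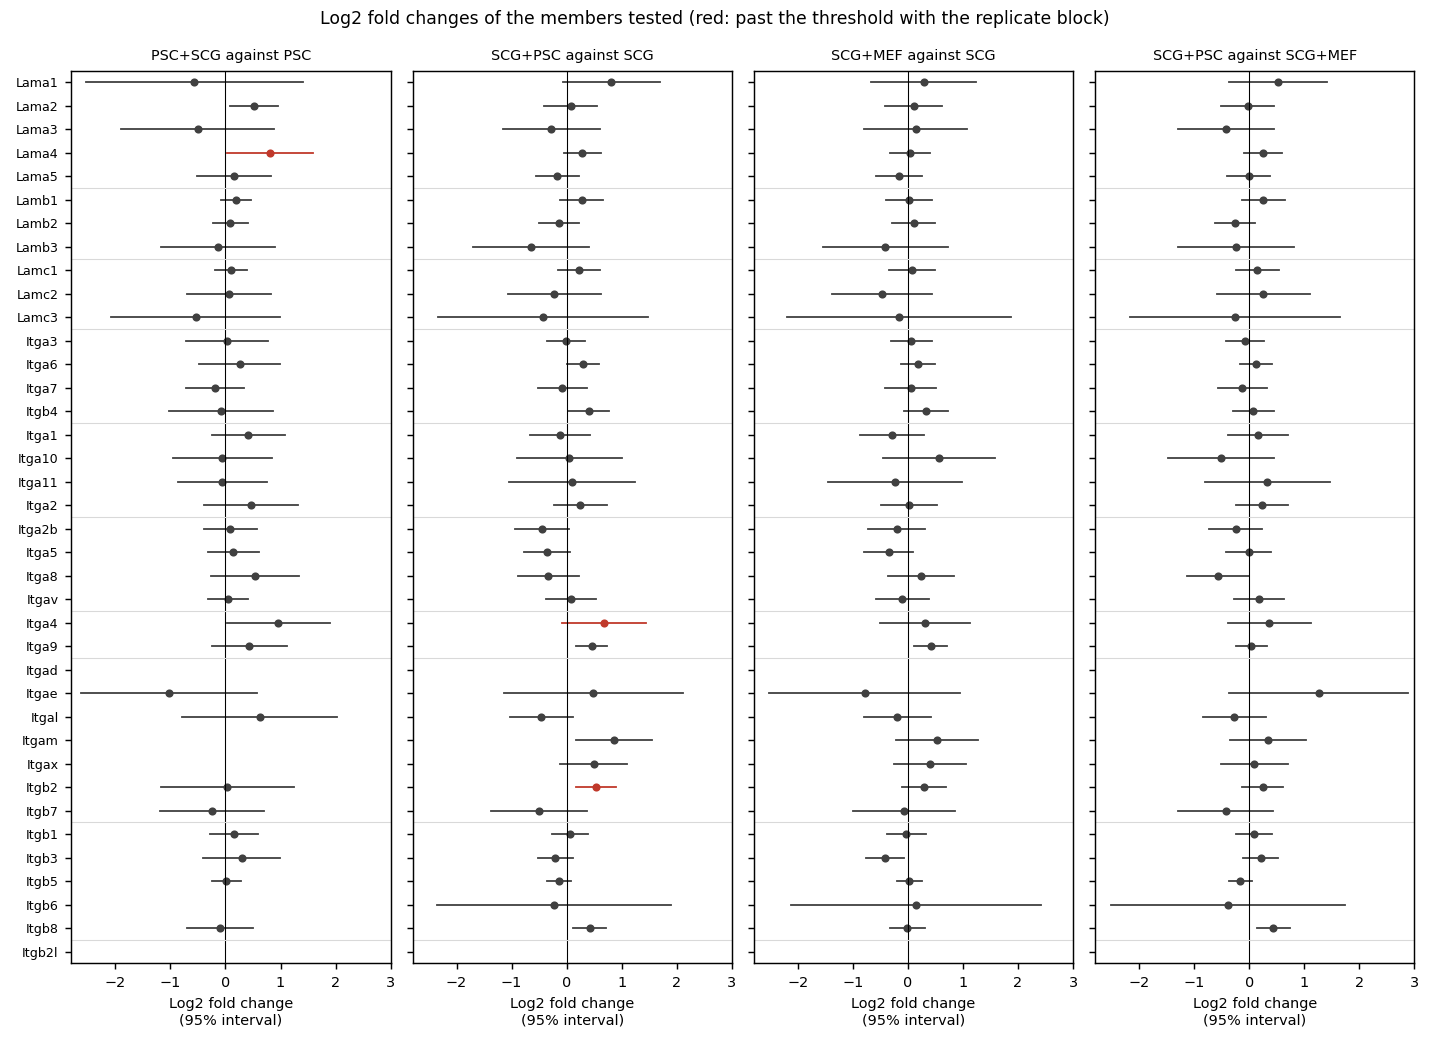
Log2 fold change of each tested member with its 95% interval from limma without the block, in 4 comparisons, with red marking members past the threshold when the replicate number was a block. Red appears for Lama4 in PSC+SCG against PSC and for Itga4 and Itgb2 in SCG+PSC against SCG, and for no member in the other two panels.

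The remaining integrins that were higher in SCG+PSC did not pass in either fit. Itga9 had 1037, 1366 and 1082 normalized counts in SCG and 1606, 1428, 1692 and 1591 in SCG+PSC, without overlap, for a log2 fold change of 0.45 (SE 0.129, adjusted p 0.116 with the block, limma). Itgb8, which pairs with alpha v to activate latent TGF-beta, had 1179, 1651 and 1585 against 1788, 2214, 1771 and 2066, also without overlap, and a log2 fold change of 0.42 (SE 0.136, adjusted p 0.212 with the block, limma). Itga6 and Itgb4, which together form a laminin receptor of epithelia and Schwann cells, had 7186, 9672 and 8225 against 9098, 10518, 10381 and 10968, and 638, 473 and 544 against 901, 589, 829 and 618. Both overlapped between groups, at log2 fold changes of 0.30 and 0.40. Itga2b, the platelet subunit, was lower without overlap, with 55.7, 66.6 and 49.2 in SCG and 45.1, 34.5, 44.9 and 41.4 in SCG+PSC. In all, 4 members were higher without overlap (Itga9, Itgam, Itgb2 and Itgb8), where 3.13% of protein-coding genes were, and 1 was lower, where 1.98% were.

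The abundant integrins of the ganglia did not pass in either fit. Itgb1 had 45244, 60793 and 54289.8 normalized counts in SCG and 50864, 63354, 51949 and 56152 in SCG+PSC, at a log2 fold change of 0.062 (95% interval -0.26 to 0.39). Itga7 had 23728, 24949 and 19340.5 against 27035, 26340.5, 16144 and 17992, with SCG+PSC 3 and 4 below all SCG libraries and SCG+PSC 1 and 2 above them. Itga5 had 7969, 12183 and 9623 against 7671, 9662, 7131 and 6419, lower in 3 of 3 pairs at a log2 fold change of -0.36 (95% interval -0.77 to 0.05). Itga1 had 6028, 8434 and 8478 against 5702, 7962, 6911 and 7439.7. None of these intervals excluded 0.

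No laminin chain passed in the ganglia. Lama4 had 8559.6, 12602 and 8162 normalized counts in SCG and 10484, 13509.8, 11447 and 11476 in SCG+PSC, higher in 3 of 3 pairs, with a log2 fold change of 0.28 (95% interval -0.06 to 0.63, adjusted p 0.149 with the block, limma). Lamb1 had 7736, 11987 and 8839 against 10562, 13949.8, 10914 and 10137, higher in 3 of 3 pairs, with a log2 fold change of 0.27 (95% interval -0.12 to 0.66). With the block its log2 fold change was 0.32 (SE 0.074, adjusted p 0.0586, limma), and the lowest adjusted p of any alternative was 0.0078, but no alternative brought it past both parts of the threshold. Lamb2 pointed the other way, with 5218, 7468 and 5458 against 6049, 6466, 4893 and 4429.9, and Lamc1 had 8849, 14656 and 12552 against 11582, 15949, 14064 and 13651. Lama2 overlapped between groups, at 2409.7, 4879 and 3754 against 3088, 4882, 3590.4 and 3527. Replicate 2 was the highest in every nerve group for Lama2, Lama4, Lamb1, Lamc1 and for 8 other members, 33.3% of the 36 tested beside 14.2% of protein-coding genes.

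Partners of the laminin sheet included 2 of 18 genes past the threshold in SCG+PSC against SCG, both in the fit with the block only. Fbln1, fibulin 1, a protein of basement membranes and elastic fibres, rose from 534, 767 and 609.6 normalized counts in SCG to 912, 1034, 899.5 and 730.3 in SCG+PSC (adjusted p 0.0192, limma with the block), with SCG 2 above SCG+PSC 4. Col4a5, a collagen IV chain, fell from 539.7, 847 and 560.5 to 314, 516, 186 and 161 (adjusted p 0.0364, limma with the block), with no overlap. The list had 12 of 18 higher, where 52.2% of protein-coding genes were, and a median log2 fold change of 0.061. None of 12 receptors other than integrins, 27 adhesion proteins and 21 other ligands passed in either fit, with medians of -0.0012, -0.0032 and -0.022. Among cell type markers, the 10 mural cell markers summed to between 47155 and 64594 in SCG+PSC and between 68739 and 74327 in SCG, without overlap. Abundant genes weigh most in such a sum. Of the 10 mural markers 1 was higher, and only 1 was by itself lower without overlap. In the endothelial list 8 of 10 markers were higher, at a median log2 fold change of 0.86. The same number of endothelial markers had an unadjusted p under 0.05, but the list sums overlapped, at 5127 to 5542 in SCG+PSC and 4674 to 5486 in SCG. No mural or endothelial marker passed the threshold. Of the 10 fibroblast markers 8 were higher, and Lum, the matrix proteoglycan lumican, passed with the block (856, 858 and 1478 normalized counts in SCG against 1721, 1158, 2097 and 2221, adjusted p 0.0298, limma). The fibroblast sums overlapped, at 337074 to 459591 in SCG+PSC and 270684 to 474900 in SCG. For all these markers, their part in the values of laminin chains and integrins was not tested.

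The third comparison set SCG+MEF against SCG and shares the SCG libraries with the second. No member passed without the block, where 0.0188% of protein-coding genes did, nor with it, where 0.238% did. The median log2 fold change over the 36 members was 0.029, beside 0.031 for all protein-coding genes. Means of the log2 values were higher for 21 members, where 59.2% of protein-coding genes were higher. At an unadjusted p under 0.05 there were 2 members, 5.56% of those tested against 2.72% of protein-coding genes. Itga9 had 1379, 1471 and 1784 normalized counts in SCG+MEF, above all SCG libraries, for a log2 fold change of 0.41 (SE 0.138, adjusted p 0.343 with the block, limma). It was the 1 member higher without overlap, where 2.95% of protein-coding genes were higher and 2.05% lower, and no member was lower. Itgb3, the beta subunit that binds vitronectin with alpha v, had 2164, 3207 and 2758 in SCG and 1752, 2238 and 2053 in SCG+MEF, lower in 3 of 3 pairs, with a log2 fold change of -0.42 (SE 0.156, adjusted p 0.0847 with the block, limma). Of the 6 members with unadjusted p under 0.05 in the second comparison, all but Itgb8 were above SCG in 3 of 3 pairs. Among them Itga6 had 7835, 10385.5 and 10163 normalized counts in SCG+MEF, and Itgb4 had 700, 728 and 635. Lama4 had 8928, 11204 and 9466 in SCG+MEF, within the range of SCG. Single cell type markers also differed here: Dcn and Lum of the fibroblast list were higher (means of 4769 against 2804 and 2703 against 1064 normalized counts) and Fabp7 of the glial list was lower (2689 against 3845), all past the threshold with the block only. Of the 10 fibroblast markers 7 were higher, with overlapping sums of 337597 to 466972 in SCG+MEF and 270684 to 474900 in SCG. Of the 10 glial markers 6 were higher, with overlapping sums of 103821 to 135274 and 99106 to 128146. The mural markers summed to between 45814 and 62840 in SCG+MEF, below all SCG libraries, with 2 of 10 higher and 2 lower without overlap. Of the 10 endothelial markers 8 were higher here too, at a median log2 fold change of 0.55. Their sums overlapped, at 4540 to 5433 in SCG+MEF and 4674 to 5486 in SCG. The part of these cells in the Itga9 and Itgb3 values was not tested. The 4 lists of partners had no gene past the threshold in either fit.

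Set against SCG+MEF directly, SCG+PSC had no member past the threshold in either fit, where 0% of protein-coding genes passed without the block and 1.14% with it. Members at an unadjusted p under 0.05 were Itgb8 and Itga8, 5.56% of the 36 beside 3.93% of protein-coding genes. Itgb8 had 1556, 1330.5 and 1453 normalized counts in SCG+MEF, below all 4 SCG+PSC libraries, for a log2 fold change of 0.43 (SE 0.136, adjusted p 0.189 with the block, limma). Itga8, which binds nephronectin, had 433, 423 and 676 in SCG+MEF and 334, 328, 314 and 370.2 in SCG+PSC, without overlap and lower by -0.57 on the log2 scale (SE 0.253, adjusted p 0.220 with the block, limma). Groups did not overlap for 2 higher members, Itgb8 and Lama1, beside 2.20% of protein-coding genes, and for 2 lower members, Itga8 and Itga2b, beside 2.41%. Neither of the 2 members past the threshold against SCG with the block differed between the cocultures beyond the threshold: Itga4 gave 0.37 (95% interval -0.39 to 1.12) and Itgb2 0.25 (95% interval -0.12 to 0.62) on the log2 scale. Among the glial markers Fabp7 was higher and Gfra3 lower in SCG+PSC with the block, and among the fibroblast markers Lum was lower. Of all protein-coding genes tested, 44.8% were higher in SCG+PSC. Of the 10 glial markers 4 were higher, with overlapping sums of 94761 to 117589 in SCG+PSC and 103821 to 135274 in SCG+MEF. Of the 10 fibroblast markers 3 were higher, with overlapping sums of 337074 to 459591 and 337597 to 466972. The part of these cells in the Itgb8 and Itga8 values was not tested. The 4 partner lists again had no gene past the threshold in either fit.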

How the data were processed

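RNA-seq libraries (TruSeq Stranded mRNA) were made from PSC (n = 3), PSC+SCG (n = 3), SCG (n = 3), SCG+MEF (n = 3) and SCG+PSC (n = 4). The authors aligned reads with STAR 2.7.10b to GRCm39, counted them per gene with a GENCODE annotation and deposited normalized counts, that is, a signal of counts divided by DESeq2 1.38.3 size factors in R 4.2.2, in 2 tables normalized separately. Values were therefore compared within a table. Steps in the low values gave whole reads (within 0.1 of a read) for 14 of 16 libraries, but not for PSC+SCG replicate 1 and SCG+PSC replicate 4.

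Values were tested as log2(normalized count + 1), a scale that understates changes of low genes, with limma 3.58.1 (R 4.3.3, intensity trend, Benjamini-Hochberg over all genes with a summed count of 10 or more: 21273 in the PSC table and 23779 in the nerve table). The threshold was 0.05 for the adjusted p and 0.5, in either direction, for the log2 fold change. The nerve fit held all 10 libraries and 1 shared spread. The study's own model held 4 batch dates, which no source used here ties to libraries. Replicate numbers come from the labels, and deviations from group means of same-numbered libraries correlated at 0.120 to 0.548 in all pairs, above the 0.1 set for pairing, so the fit with the number as a block is given beside the other. Libraries of unlike number also passed 0.1: PSC 1 with PSC+SCG 2 at 0.190, and SCG+MEF 3 with SCG+PSC 4 at 0.163. The latter was above SCG+MEF 3 with SCG+PSC 3, at 0.120, so the pairing of SCG+PSC 3 is uncertain. Alternatives were other pseudocounts, filters and scalings, edgeR 4.0.16 and DESeq2 1.42.0 on the recovered reads of 9 nerve libraries, and leaving out each library. The limma fits without and with the block were also run on simulated data, and the count tests were not.

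Exon lengths, coordinates and overlaps came from the GENCODE annotation of GRCm39, of a later release than that of the authors. Exon lengths merged all annotated exons of a gene. For both reasons levels per kilobase, and shares and ratios of them, are approximate. Members and the lists of roles, partners and markers were chosen with earlier results of these data known. Itgb2l is in no role list. Genes named were members past the threshold with or without the block, the highest members of each role, Lama4, which the study's text names, and partners past the threshold; members with unadjusted p under 0.05 or groups that did not overlap, Itgb5, Mrc1 and the contrasts of replicate numbers were chosen after their values were seen.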

Additional observations from a re-analysis of the deposited data

How the results depend on the processing

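The replicate block was the choice that changed the count of members past the threshold, which was 0 in all 4 comparisons without it. In PSC+SCG against PSC the count was 1 with the block and 1 with the block when the replicates 3 were set apart. In SCG+PSC against SCG it was 2 with the block in limma, 2 in edgeR with the block (adjusted p 0.0330 for Itga4 and 0.0478 for Itgb2) and 2 in DESeq2 with the block (0.000945 and 0.0108). The block changed no call of a member in the other two comparisons. With the block and 1 library left out, the count ran from 0 to 1 in PSC+SCG against PSC and from 0 to 3 in SCG+PSC against SCG, where Itga9 was called without SCG replicate 2 and Itgam and Itgb4 without SCG+PSC replicate 2. Leaving out 1 library without the block, other pseudocounts, filters, quantile normalization and, in the ganglia, edgeR and DESeq2 without the block left it at 0. Counts over all protein-coding genes moved more: from 0 to 76 with the block in PSC+SCG against PSC, from 8 to 308 with the block, 3 in edgeR and 55 in DESeq2 in SCG+PSC against SCG, from 3 to 38 with the block and 21 in DESeq2 in SCG+MEF against SCG, and from 0 to 182 with the block and 18 in DESeq2 in SCG+PSC against SCG+MEF. No count test was run on the PSC table, since PSC+SCG replicate 1 gave no whole reads. The fold changes of the members named as past the threshold kept their sign in every setting. No library of SCG+PSC, the group of 4, stood apart in any of the 36 members tested. Members under about 10 normalized counts had intervals too wide to show a change at this depth.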

Other observations

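The balance of the beta chains in the ganglia was covered by no single-gene test. It was noticed after the values were seen and is given without a test. The level per kilobase of Lamb1 divided by that of Lamb2 was 0.842, 0.911 and 0.919 in SCG 1, 2 and 3, 0.691, 0.975 and 0.863 in SCG+MEF, and 0.991, 1.22, 1.27 and 1.30 in SCG+PSC. All 4 SCG+PSC libraries lay above the other 6 nerve libraries. Lamb1 and Lamb2 are alternative beta chains that pair with the same gamma chain, and Lamb2 is the one at synapses and in vessel walls. In the PSC table the same ratio was 0.499, 0.515 and 0.601 in PSC and 0.628, 0.483 and 0.646 in PSC+SCG, so the groups overlapped there.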
